A study of Mus musculus with 24 samples.

Results

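The osteoblast lineage genes described here are 9 genes that follow bone-forming cells from commitment to matrix production: Runx2, Sp7, Alpl, Smpd3, Panx3, Ibsp, Spp1, Tmem119 and Dmp1. They were chosen by name, not by their values, and 7 of the 9 had at least 1 probe set annotated to that symbol alone, 14 probe sets in all, on an array with 18193 genes so named. Runx2 and Spp1 were not analysed here, because the annotation used held no probe set of either symbol alone. Dmp1 had 3 probe sets, none of which reached the level required for testing, so 6 of the 13837 genes tested were members. Where a gene had several probe sets, the one with the highest mean stood for it.

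The knockout embryos, labelled Alk5 Knockout, and their control littermates came from crosses between Wnt1cre;Alk5fl/+ and Alk5fl/fl parents. Alk5 (Tgfbr1) encodes a TGF-beta receptor, and the Wnt1 promoter drives Cre in the early neural crest, so other cells of the jaws keep the gene. The genotype of single embryos is not given in the sources used here, so it is not known whether some controls carried Cre. All embryos were taken at embryonic day 12.5, on a background labelled C57B6, and mutants were recognised by a cleft palate and a defect of the skull vault. Each mandible and maxilla was cut into a distal and a proximal end, and each of these 4 parts gave 4 knockout arrays (numbers 1 to 4) and 2 control arrays (numbers 1 and 2), 16 and 8 in all. The labels do not say whether the 4 parts of a number were cut from a single embryo or from pooled embryos, so a p-value here covers the spread between these samples, which may be technical. The values are log2 expression from RMA, and no value of a probe set was compared with that of another probe set.

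Most bone of the jaws forms directly in mesenchyme that comes from the neural crest, without a cartilage model. Condensing cells switch on the transcription factors Runx2 and then Sp7 (osterix), without which osteoblasts do not form in mice, and afterwards express enzymes and secreted proteins of bone matrix. TGF-beta receptors on crest-derived cells are required in mice for normal growth of the mandible and the palate. Panx3, Ibsp and Spp1 mark later osteoblasts, and Dmp1 marks the osteocytes that these cells become.

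Several libraries stood apart, and the results have to be read with that in mind. On knockout arrays 1 and 2 the 3' signal of 2 housekeeping controls, Gapdh and beta-actin, exceeded their 5' signal by 0.71 to 1.5 on the log2 scale. The excess was 0.00 to 0.16 on knockout arrays 3 and 4 and 0.13 to 0.22 on the control arrays. The hybridisation controls averaged 11.30 to 12.19 on knockout arrays 1 and 2, 9.03 to 9.51 on knockout arrays 3 and 4 and 10.09 to 11.07 on control arrays, without overlap. The mean of 4 erythroid markers was also higher on knockout arrays 1 and 2 (9.61 to 10.55) than on knockout arrays 3 and 4 (7.69 to 8.24) and control arrays (8.28 to 8.57). Of these markers Hba-a1 did not pass the filter. The embryonic globin gene Hbb-bh1 had 13.36 to 13.96, 10.07 to 10.52 and 11.59 to 11.95 in the same order of sets, without overlap. The stage is known from the labels only, and whether the sets differed in exact stage was not tested. By Xist and Kdm5d, all 8 control arrays were male, and each knockout set held 4 male and 4 female arrays. All 4 arrays of knockout 3 were male and all 4 of knockout 4 female. The proximal maxilla of knockout 1 was female and its other 3 parts male, and that of knockout 2 was male and its other 3 parts female, so as labelled the parts of these numbers did not come from 1 embryo each. A mean over knockouts 1 and 2 does not depend on which number an array carries, but its spread and the values without knockout 1 or without knockout 2 do. The knockouts are therefore given as 2 sets of 8 arrays. The control arrays form a set of their own, so genotype and array set cannot be told apart in either comparison with control.

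The labelled ends of the control 2 mandible went against the genes of jaw identity. Alx1, a homeobox gene of the distal jaw midline, had 11.19 in the distal and 5.52 in the proximal mandible of control 1, but 5.65 in the distal and 11.64 in the proximal mandible of control 2. Hand2, a transcription factor of the distal mandible, ran the same way, with 12.72 distal and 10.80 proximal in control 1, against 11.49 distal and 13.05 proximal in control 2. In all 4 knockout mandibles both genes were higher in the array labelled distal. Both control 2 maxilla arrays had high Alx1 (12.63 distal and 12.76 proximal), and control 1 had 11.98 distal and 10.17 proximal. Other identity genes separated the control maxillae by number at both ends. Barx1, listed as a proximal jaw gene, had 11.26 distal and 11.84 proximal in control 1, and 9.85 and 10.31 in control 2. Msx1, listed as a distal jaw gene, had 9.12 distal and 11.05 proximal in control 1, and 12.79 and 12.92 in control 2. The arrays were kept under their labels. A mean over both ends of a jaw does not depend on which end carried which label, so the comparisons with control rest mainly on such means. Such a mean does not remove a difference between control 1 and control 2 that both ends share, as in the maxilla. The part of that difference in the members' values was not tested. The deleted gene itself gave no check of the genotype, since the place of its probes relative to the deleted part is not given. Its brightest probe set had 12.07 to 12.64 on knockout arrays 1 and 2, 12.32 to 12.52 on knockout arrays 3 and 4, and 11.98 to 12.69 on control arrays, and a dimmer probe set had 5.42 to 6.62, 6.28 to 7.07 and 7.02 to 8.31 in the same order of sets. Another dim probe set had 4.33 to 5.86, 7.24 to 7.97 and 6.64 to 7.57 in that order, so there knockouts 3 and 4 were not below the controls.

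**Figure D1:**
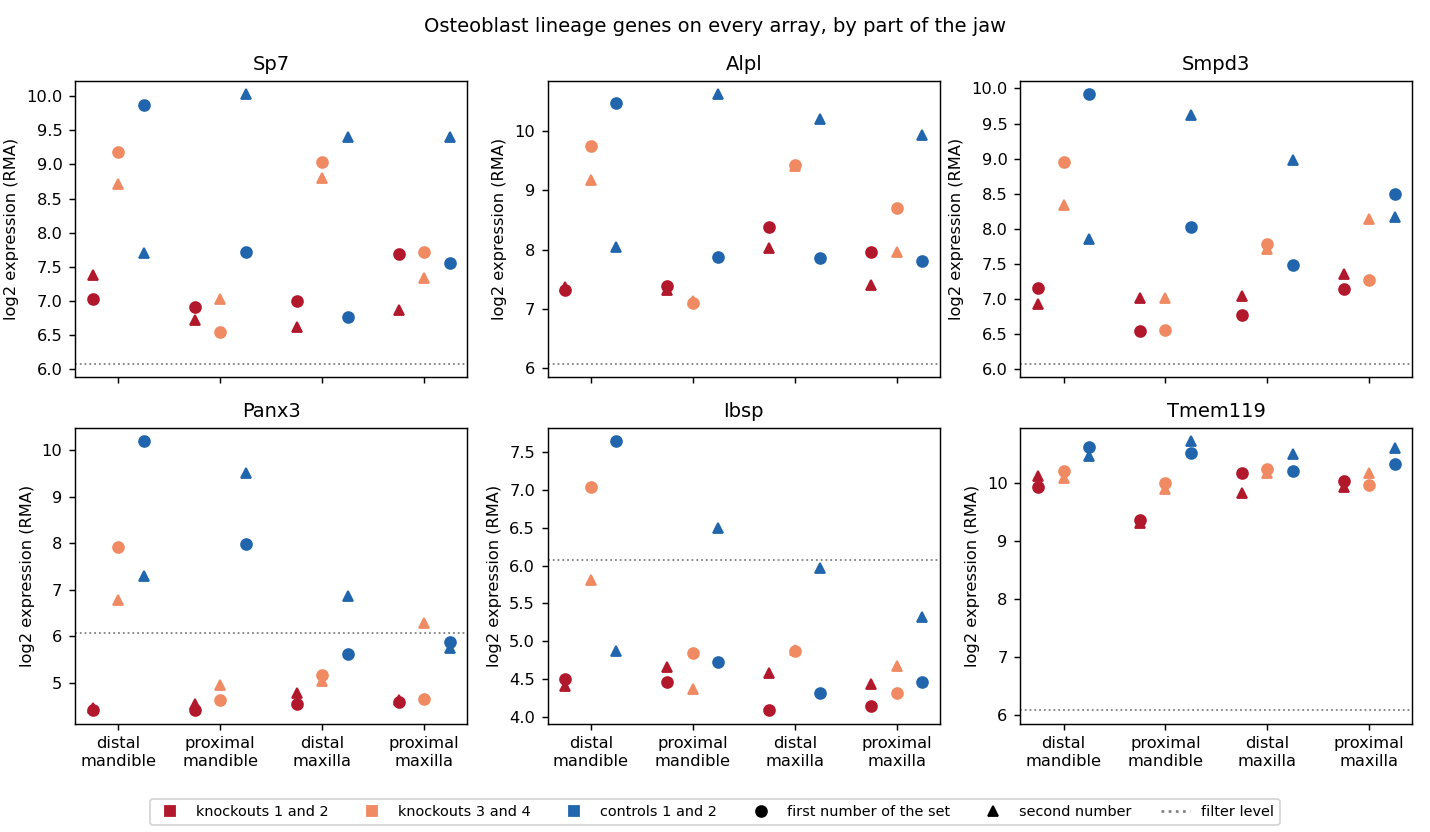
Each panel shows 1 osteoblast lineage gene, with log2 expression on the y axis and the 4 parts of the jaws on the x axis; each point is 1 array, coloured by array set, and the dotted line is the filter level of 6.07. The medians of knockouts 1 and 2 are the lowest of the 3 sets for all 6 genes. In knockouts 3 and 4 and in control 1 the distal mandible lies above the proximal mandible for all 6 genes, and in control 2 the order of the labelled ends is the opposite.

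Sp7, the transcription factor that commits precursors to the osteoblast fate, was above the filter level of 6.07 on all arrays, though on some not by much. Its lowest, median and highest log2 values were 6.62, 6.95 and 7.69 on the 8 arrays of knockouts 1 and 2. They were 6.53, 8.22 and 9.19 in knockouts 3 and 4 and 6.76, 8.56 and 10.03 in controls. The 3 sets overlapped, and knockouts 3 and 4 and the controls spanned a wider range than knockouts 1 and 2. In the distal mandible Sp7 had 9.19 and 8.72 in knockouts 3 and 4 and 9.87 and 7.71 in controls 1 and 2. In the proximal mandible it had 6.53 and 7.03 in knockouts 3 and 4 and 7.72 and 10.03 in controls 1 and 2. The high arrays were thus the distal mandible of knockouts 3 and 4 and of control 1, and the array labelled proximal mandible in control 2.

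Alpl encodes tissue-nonspecific alkaline phosphatase, an enzyme of the osteoblast surface that removes the mineralisation inhibitor pyrophosphate. It followed Sp7 closely: across the 24 arrays, with the mean of each array set removed, the Pearson correlation of the pair was 0.93. That value is a description, since the arrays share parts and replicate numbers. Alpl ranged from 7.32 to 8.39 in knockouts 1 and 2 (median 7.39), from 7.10 to 9.75 in knockouts 3 and 4 (median 8.94) and from 7.82 to 10.62 in controls (median 8.98). In the distal maxilla it had 8.39 and 8.03 in knockouts 1 and 2 and 9.43 and 9.42 in knockouts 3 and 4, beside 7.87 and 10.20 in controls 1 and 2. Both pairs of knockouts lay between the controls there, which differed from each other by more than the knockouts did.

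Smpd3, a neutral sphingomyelinase needed in mice for normal bone mineralisation, ranged from 6.55 to 7.35 in knockouts 1 and 2 (median 7.03). It ranged from 6.56 to 8.95 in knockouts 3 and 4 (median 7.74) and from 7.49 to 9.91 in controls (median 8.33). On this probe set no array of knockouts 1 and 2 reached the lowest control. The other Smpd3 probe sets were dimmer, above the filter level on 6 and 3 arrays, and there the sets overlapped. They had 4.77 to 5.73 and 5.63 to 6.02 in knockouts 1 and 2, and 5.29 to 8.32 and 5.66 to 7.26 in controls. Panx3, a channel protein of osteoblasts and of prehypertrophic cartilage, ranged from 4.41 to 4.77 in knockouts 1 and 2, entirely below the filter level. Its range was 4.63 to 7.93 in knockouts 3 and 4 (median 5.10) and 5.63 to 10.20 in controls (median 7.08). The other Panx3 probe sets were above the filter level on 0 arrays, with 4.94 to 6.03 and 3.72 to 4.24 over all arrays. Values under the filter level are close to the background of the array, so the size of a difference that ends there is a poor measure.

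Panx3 was the member with the plainest pattern by jaw. In the distal mandible it had 4.41 and 4.46 in knockouts 1 and 2, 7.93 and 6.78 in knockouts 3 and 4, and 10.20 and 7.29 in controls 1 and 2. In the proximal mandible it had 4.42 and 4.54 in knockouts 1 and 2, 4.63 and 4.96 in knockouts 3 and 4, and 7.99 and 9.51 in controls 1 and 2. The proximal mandible arrays of all 4 knockouts were thus below both controls. In the maxilla 1 knockout array of 8 was above the filter level, the proximal array of knockout 4 at 6.28, and 1 control array of 4, the distal array of control 2 at 6.87.

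Ibsp encodes bone sialoprotein, a secreted protein of mineralising matrix, and its low level put most arrays near background. The probe set with the higher mean was above the filter level on 3 arrays: the distal mandible of knockout 3 at 7.04, the distal mandible of control 1 at 7.64 and the array labelled proximal mandible of control 2 at 6.49. Its other probe set had a wider range. In the distal mandible that probe set had 3.18 and 3.29 in knockouts 1 and 2, 9.02 and 7.80 in knockouts 3 and 4, and 10.14 and 3.46 in controls 1 and 2. In the array labelled proximal mandible it had 3.11 and 2.69 in knockouts 1 and 2, 5.71 and 3.42 in knockouts 3 and 4, and 4.15 and 8.86 in controls 1 and 2. This probe set was above the filter level on 5 arrays: the 3 found with the first probe set, the distal mandible of knockout 4 and the distal maxilla of control 2 (8.59).

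Tmem119, a membrane protein that promotes osteoblast differentiation in mice, was bright everywhere. Over the 24 arrays it varied less than the other tested members, with an SD of 0.35 against 0.93 or more. It had 9.31 to 10.17 in knockouts 1 and 2 (median 9.93), 9.89 to 10.24 in knockouts 3 and 4 (median 10.13) and 10.20 to 10.72 in controls (median 10.51). A single knockout array, the distal maxilla of knockout 3 at 10.24, lay above the lowest control, the distal maxilla of control 1 at 10.20. In the proximal mandible Tmem119 had 9.36 and 9.31 in knockouts 1 and 2, 9.99 and 9.89 in knockouts 3 and 4, and 10.52 and 10.72 in controls 1 and 2. Dmp1, an acidic matrix protein of osteocytes, had its highest value of all 3 probe sets and 24 arrays at 5.09, under the filter level.

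The promoters of Ibsp and Alpl are shown because these genes of matrix and mineralisation were high on the same mandible arrays. Each is the 300-base window from 250 bases before to 50 bases after an annotated start, from RefSeq on build GRCm38.p6, written along the gene's own strand. Capitals mark a TATA motif (TATAAA, here on the opposite strand, so that TTTATA is read) in Ibsp, on the plus strand at chr5:104299037-104299336, and GC boxes (GGGCGG) in Alpl, on the minus strand at chr4:137796335-137796634.
Ibsp: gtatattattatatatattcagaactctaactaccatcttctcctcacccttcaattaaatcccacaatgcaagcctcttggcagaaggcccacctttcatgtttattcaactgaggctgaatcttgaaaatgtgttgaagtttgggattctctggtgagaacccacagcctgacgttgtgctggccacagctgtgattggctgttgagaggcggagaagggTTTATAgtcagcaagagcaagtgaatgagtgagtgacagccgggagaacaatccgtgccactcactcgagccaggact
Alpl: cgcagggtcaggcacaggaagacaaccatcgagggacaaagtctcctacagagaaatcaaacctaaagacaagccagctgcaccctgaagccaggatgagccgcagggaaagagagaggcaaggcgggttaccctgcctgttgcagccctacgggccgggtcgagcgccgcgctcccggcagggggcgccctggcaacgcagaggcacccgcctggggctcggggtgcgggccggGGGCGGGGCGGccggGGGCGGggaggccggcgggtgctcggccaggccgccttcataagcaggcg
The TATA motif of Ibsp begins 28 bases before the start. The 3 GC boxes of Alpl begin 15 and 10 bases before the start, where they share 1 base, and at the first transcribed base. Of 32851 promoter windows of this length in the table, 13.6% hold TATAAA and 35.7% hold GGGCGG on either strand. The core bound by Runx factors (ACCACA, in 16.8% of windows, either strand) is in 3 of the members' 8 windows: 1 of Dmp1, 1 of Spp1 and that of Runx2, which holds 3 copies. Neither printed window holds it or the homeobox core TAATTA (in 5.29%), which says only that these letters are not in these windows. RefSeq's table held promoters for 5 of the 9 members, and Sp7, Smpd3, Panx3 and Tmem119 were not among them.

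To ask whether the members differed between genotypes over the whole jaw, the 4 parts of each number were averaged first. With the 4 knockouts as 1 group the 6 members differed from controls by -0.53 to -2.28 on the log2 scale, and limma called 0 of the 6, with 3 of them at an unadjusted p under 0.05. It called 0% of all genes in that comparison, with 965 of 13837 at an unadjusted p under 0.05. Panx3 averaged 5.11 ± 0.66 in knockouts (SD, n = 4) and 7.39 ± 0.05 in controls (n = 2), a difference of -2.28 ± 0.42 (SE, adjusted p = 0.59 in limma). Smpd3 averaged 7.36 ± 0.43 in knockouts and 8.57 ± 0.12 in controls, a difference of -1.21 ± 0.28. The array sets lay apart within the knockouts, with a Panx3 mean of 4.54 in knockouts 1 and 2 and of 5.68 in knockouts 3 and 4. The arrays measure tissue, so fewer osteoblast precursors and less RNA per cell cannot be told apart in any of these values.

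By array set, knockouts 1 and 2 were lower than controls for 6 of 6 members in limma, where 58.0% of all genes were called. With so large a share of all genes called, nothing particular to the members can be read from that count. The differences ran from -0.66 ± 0.07 (SE) for Tmem119 to -2.84 ± 0.08 for Panx3, beside a median of -0.06 over all genes. Sp7 averaged 7.02 ± 0.18 in knockouts 1 and 2 and 8.56 ± 0.82 in controls (SD, n = 2 each), a difference of -1.53 ± 0.36. Without control 2 it was -0.95 for Sp7 and -0.87 for Alpl, both still called (adjusted p = 0.0026 and 0.0074 in limma). Without knockout 1 or without knockout 2, 4 of the 6 members were called, and Sp7 and Alpl were not (adjusted p 0.055 to 0.096). Knockouts 1 and 2 were also lower than knockouts 3 and 4, which carry the same genotype label, for 5 of 6 members, where 62.5% of all genes were called. The exception was Alpl, at -0.94 ± 0.37 (adjusted p = 0.072 in limma). That comparison rested on few arrays: leaving out any 1 of the 4 knockout numbers left 2 or 3 members called.

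Knockouts 3 and 4 were the set closer to the control arrays in 3' excess, though not in hybridisation controls. There 3 of 6 members were lower than in controls in limma, where 4.64% of all genes were called, and the other 3 were not called. For Panx3, controls 1 and 2 had 9.10 and 8.40 in the mandible but 5.76 and 6.30 in the maxilla. These opposite deviations cancel in the mean of the 4 parts, so its small SD and SE understate the spread. By jaw the SE of Panx3 was 0.30, here and in knockouts 1 and 2. Over the 4 parts Panx3 averaged 5.68 ± 0.12 in knockouts 3 and 4 and 7.39 ± 0.05 in controls (SD, n = 2 each). The difference was -1.71 ± 0.08 (SE, adjusted p = 0.0023 in limma). Leaving out any 1 of the 6 numbers kept it between -1.63 and -1.79, with adjusted p between 0.0053 and 0.031. Panx3 was called lower in all 6 of these fits, in some of which an arm held 1 replicate whose spread was taken from the other sets.

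Smpd3 averaged 7.72 ± 0.11 in knockouts 3 and 4 and 8.57 ± 0.12 in controls, a difference of -0.85 ± 0.10 (adjusted p = 0.019 in limma). It was not called without knockout 3 (-0.76, adjusted p = 0.14) or without knockout 4 (-0.93, adjusted p = 0.12). Tmem119 averaged 10.09 ± 0.01 in knockouts 3 and 4 and 10.49 ± 0.11 in controls, a difference of -0.40 ± 0.07 (adjusted p = 0.046 in limma). That call was lost in each of the 6 fits that left out 1 number, with differences of -0.32 to -0.48 and adjusted p of 0.063 to 0.24.

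Sp7 and Alpl did not pass in knockouts 3 and 4. Sp7 averaged 8.04 ± 0.11 in knockouts 3 and 4 and 8.56 ± 0.82 in controls, a difference of -0.51 (95% interval -1.40 to 0.37, adjusted p = 0.41 in limma). Alpl averaged 8.58 ± 0.23 in knockouts 3 and 4 and 9.10 ± 0.84 in controls, a difference of -0.52 (interval -1.45 to 0.41, adjusted p = 0.43). Both values turned on which control was used. Without control 2 the differences were 0.07 for each gene, and without control 1 they were -1.09 for Sp7 (adjusted p = 0.038 in limma) and -1.11 for Alpl (adjusted p = 0.049). Ibsp averaged 5.10 ± 0.24 in knockouts 3 and 4 and 5.48 ± 0.26 in controls, a difference of -0.37 (interval -0.79 to 0.05), with both means under the filter level.

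**Figure D2:**
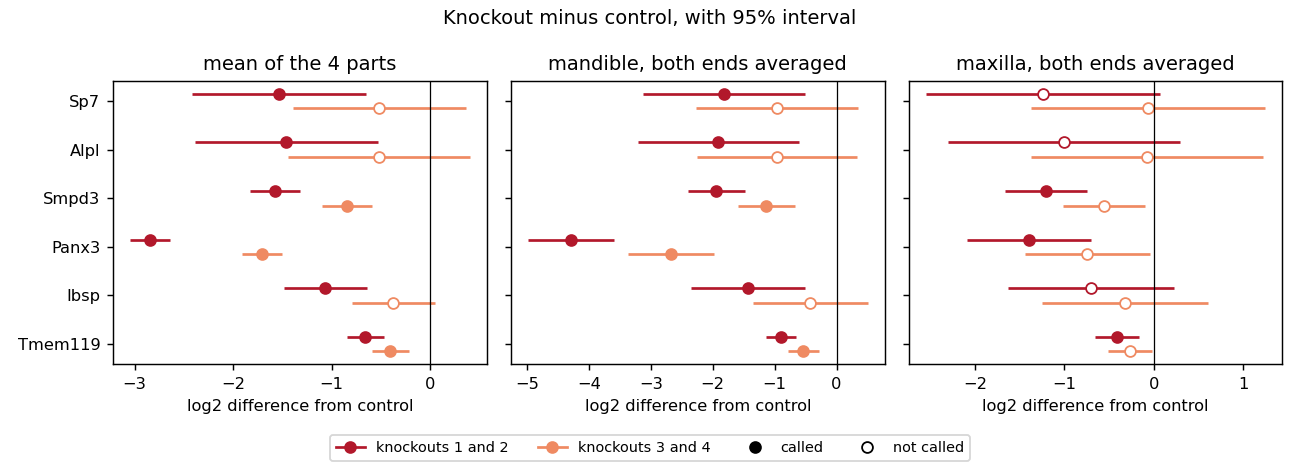
Difference between knockouts and controls (x axis, log2, knockout minus control) for each gene (y axis) over all 4 parts, in the mandible and in the maxilla; points are limma estimates with 95% intervals, filled where the adjusted p was under 0.05. Panx3, Smpd3 and Tmem119 lie left of 0 in both array sets over the 4 parts and in the mandible, while the intervals of Sp7, Alpl and Ibsp in knockouts 3 and 4 cross 0.

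By jaw, both ends were averaged for each replicate number. Knockouts 1 and 2 were lower than controls for 6 of 6 members in the mandible, where 56.8% of all genes were called, and for 3 of 6 in the maxilla (Smpd3, Panx3 and Tmem119), where 47.6% were called. Without knockout 1 or without knockout 2, 3 were called in the mandible (Smpd3, Panx3 and Tmem119). In the maxilla all 6 were called without control 1, and 2 without control 2 (Smpd3 and Panx3), with Sp7 then at -0.12 and Alpl at 0.10. In the mandible of knockouts 3 and 4, 3 of 6 members were lower than in controls, where 4.44% of all genes were called. In their maxilla 0 of 6 were called by limma, with 3 at an unadjusted p under 0.05, where 3.41% of all genes were called. Of all 13837 genes, 2743 were at that unadjusted level. Panx3 had mandible means of 6.28 and 5.87 in knockouts 3 and 4 and of 9.10 and 8.40 in controls 1 and 2, a difference of -2.67 ± 0.30 (SE, adjusted p = 0.0051 in limma). Its maxilla means were 4.92 and 5.66 in knockouts 3 and 4 and 5.76 and 6.30 in controls 1 and 2, and the difference was -0.74 ± 0.30 (adjusted p = 0.22). The mandible call for Panx3 was lost without knockout 4 (-2.47, adjusted p = 0.057 in limma).

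Smpd3 differed by -1.14 ± 0.20 in the mandible of knockouts 3 and 4 (adjusted p = 0.020 in limma) and Tmem119 by -0.54 ± 0.11 (adjusted p = 0.033). Both calls were lost without knockout 3, without knockout 4 and without control 1, and that of Tmem119 also without control 2, with adjusted p between 0.057 and 0.31. In the maxilla the values of Sp7 and Alpl in knockouts 3 and 4 changed sign with the control chosen. Against both controls the differences were -0.06 ± 0.57 for Sp7 and -0.08 ± 0.57 for Alpl. Against control 1 alone, knockouts 3 and 4 were higher, by 1.06 for Sp7 and 1.03 for Alpl (adjusted p = 0.039 and 0.038 in limma), and against control 2 alone they were lower by -1.19 for each gene (adjusted p = 0.090 and 0.082). No direction can be given for these genes in the maxilla.

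The difference between jaws in the genotype effect was tested with all 24 arrays, and limma called 0 of 6 members and 0% of all genes. Panx3 and Tmem119 had an unadjusted p under 0.05, as did 570 of all 13837 genes. The estimate for Panx3 was -2.41 ± 0.65 (SE, adjusted p = 0.82). Without control 2 the estimates were -3.03 for Panx3, -1.83 for Sp7 and -1.93 for Alpl, and all 3 were called (adjusted p 0.018 to 0.027 in limma), where 107 genes in all were called. Without control 1 they were -1.79 for Panx3 (adjusted p = 0.50 in limma), 0.35 for Sp7 and 0.15 for Alpl, so the sign for Sp7 and Alpl turned with the control used. The difference between ends in the genotype effect gave 0 of 6 members in limma, where 0.00723% of all genes were called. Tmem119 had an unadjusted p under 0.05, as did 511 of all 13837 genes. Without control 1, Sp7 (2.03) and Alpl (2.14) were called, where 203 genes in all were called, and without control 2 they stood at 0.19 and -0.33 and were not called. This contrast rests on the control ends whose labels went against the identity genes.

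In single parts, with the 4 knockouts as 1 group and the 2 array sets left in the spread, limma called 0 of 6 members in each part. The share of all genes called was 0% in the proximal mandible, 0.0145% in the distal mandible, 0.00723% in the proximal maxilla and 0.00723% in the distal maxilla. At an unadjusted p under 0.05 the number of members was 5 in the proximal mandible, 2 in the distal mandible, 1 in the proximal maxilla and 0 in the distal maxilla. Of all 13837 genes, 1058, 1364, 879 and 676 were at that level in the same order of parts. In the proximal mandible Panx3 stood at -4.11 ± 0.86, Sp7 at -2.08 ± 0.88 and Tmem119 at -0.98 ± 0.18 (SE, adjusted p of 0.15, 0.59 and 0.090 in limma). That part includes the array of control 2 in which Sp7, Alpl, Panx3 and Ibsp were high together with Alx1 and Hand2. Without control 2 the estimates there were -3.36 for Panx3, -0.92 for Sp7 and -0.88 for Tmem119, and that of Alpl was -0.65, against -2.02 with both controls.

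Within controls, Panx3 was higher in the mandible than in the maxilla, by 2.72 ± 0.53 (SE, adjusted p = 0.030 in limma), and it was the 1 member of 6 called, where 0.687% of all genes were called. Its 4 control mandible arrays had 7.29 to 10.20 and its 4 control maxilla arrays 5.63 to 6.87, without overlap. The call was lost with a replicate block (2.72 ± 0.60, adjusted p = 0.085 in limma) and in the fit of 8 group means. Without any 1 of the 4 knockout numbers, which enter only the shared estimate of the spread, the adjusted p was 0.11 to 0.14. Without control 2, Panx3 (3.34), Sp7 (1.64), Alpl (1.34) and Ibsp (1.79) were all called, where 395 genes in all were called. Without control 1, Panx3 was called at 2.09 (adjusted p = 0.034 in limma), while Sp7 (-0.54), Alpl (-0.74) and Ibsp (0.04) were not, so the sign for Sp7 and Alpl turned with the control used there as well. In knockouts 0 of 6 members differed between the jaws in limma, where 7.71% of all genes were called, and Panx3 differed by 0.31 ± 0.38. Tmem119 had an unadjusted p under 0.05, as did 3093 of all 13837 genes. In a fit of the knockout arrays alone, chosen after seeing the data, Alpl was lower in the mandible than in the maxilla, by -0.59 ± 0.13 (adjusted p = 0.011 in limma). That fit called 1579 of all 13837 genes, and in the fit of all arrays Alpl had an adjusted p of 0.49 in limma.

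Between the ends, limma called 0 of 6 members in controls, with 0 at an unadjusted p under 0.05, where 0% of all genes were called. For controls 1 and 2, the distal minus proximal difference of Sp7 in the mandible was 2.16 and -2.32, that of Alpl 2.59 and -2.58, and that of Alx1 5.67 and -5.99. The values of the 2 controls were of similar size and opposite sign, so their mean says little. In knockouts 0 of 6 members were called in the fit of all arrays, where 0.463% of all genes were called. Alpl and Tmem119 had an unadjusted p under 0.05, as did 1599 of all 13837 genes. In a fit of the knockout arrays alone, chosen after seeing the data, Sp7 (0.87 ± 0.14) and Alpl (0.99 ± 0.13) were higher distally, where 475 genes in all were called. The SE in the fit of all arrays was 0.44 and 0.46.

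The ends of the mandible differed in knockouts 3 and 4. There 5 of 6 members were higher in the distal than in the proximal mandible in limma, where 1.20% of all genes were called. This contrast, in the fit of the knockout arrays alone, was added after seeing the data. Panx3 had 7.93 and 6.78 distally and 4.63 and 4.96 proximally, a difference of 2.56 ± 0.44 (SE, adjusted p = 0.020). Alpl had 9.75 and 9.18 distally and 7.10 and 7.13 proximally, a difference of 2.35 ± 0.26 (adjusted p = 0.0018 in limma). Sp7 differed by 2.17 ± 0.28, Smpd3 by 1.85 ± 0.29 and Ibsp by 1.82 ± 0.33, and for each of these genes both distal arrays were above both proximal arrays. Tmem119 did not pass, with a difference of 0.20 ± 0.13 (adjusted p = 0.92).

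The direction was the same in control 1, where the identity genes followed the end labels in the mandible: Sp7 differed there by 2.16, Alpl by 2.59, Smpd3 by 1.89, Panx3 by 2.21 and Ibsp by 2.91 between its single distal and single proximal array. Leaving out knockout 3 left 1 of the 5 members called in knockouts 3 and 4 (Panx3, at 1.82), and leaving out knockout 1 or knockout 2, which alter only the spread, left 2 (Sp7 and Alpl). The list of 6 distal identity genes was chosen after seeing these values, so a count from it is a description only. Of these genes 3 were called higher distally in the mandible of knockouts 3 and 4, where 1.20% of all genes were called. The median difference of the 6 was 1.42. Their part in the members' values was not tested. In the maxilla of knockouts 3 and 4, limma called 0 of 6 members, where 0.520% of all genes were called. Sp7 and Alpl had an unadjusted p under 0.05, as did 1056 of all 13837 genes. Sp7 had 9.03 and 8.79 distally and 7.72 and 7.33 proximally there, a difference of 1.39 ± 0.28 (adjusted p = 0.063).

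**Figure D3:**
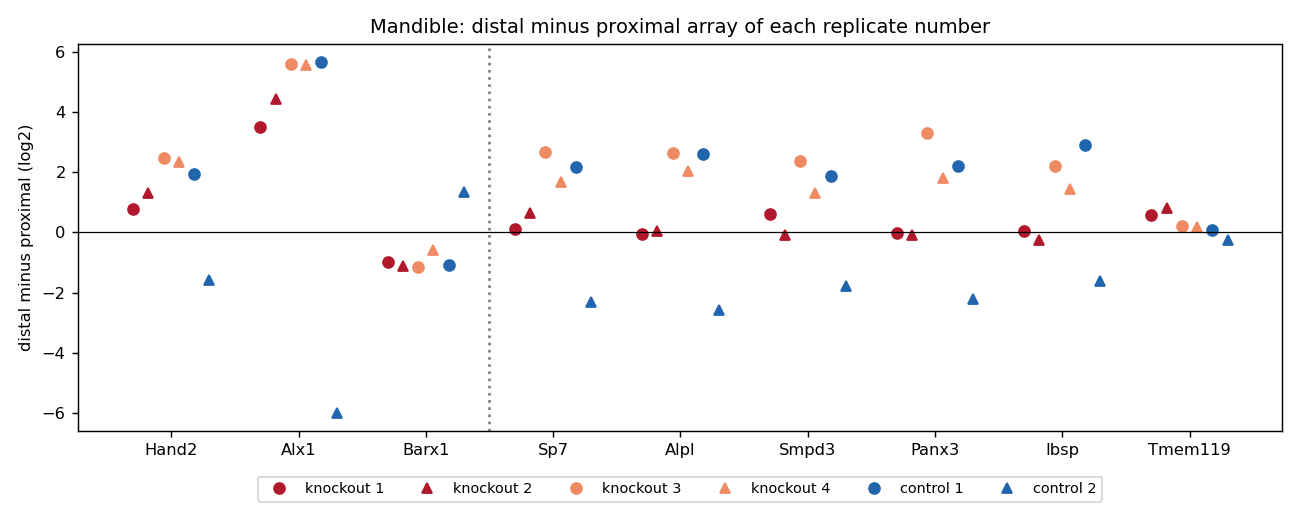
Difference between the distal and the proximal mandible array of each replicate number (y axis, log2, distal minus proximal) for 3 jaw identity genes, left of the dotted line, and 6 osteoblast lineage genes; each point is 1 pair of arrays. Knockouts 3 and 4 and control 1 lie above 0 and control 2 below 0 for Hand2, Alx1, Sp7, Alpl, Smpd3, Panx3 and Ibsp. Knockouts 1 and 2 lie near 0 for Alpl, Panx3 and Ibsp but above 0 for Hand2 and Alx1. On their arrays Panx3 (4.41 to 4.77) and Ibsp (4.09 to 4.66) were under the filter level of 6.07, so a gradient could hardly show.

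In knockouts 1 and 2 the 5 members with a mandible gradient in knockouts 3 and 4 were not called. Of these, Panx3 and Ibsp were under the filter level on all arrays of knockouts 1 and 2, so their missing gradient says little. In their mandible Alpl had 7.32 and 7.36 distally and 7.38 and 7.32 proximally, a difference of -0.01 ± 0.26 (SE). Tmem119 was the 1 member of 6 called, higher distally by 0.69 ± 0.13 (adjusted p = 0.019 in limma), where 1.86% of all genes were called, and its call was lost without any 1 of the 4 knockouts. The identity genes also differed less between the ends of these mandibles. The distal minus proximal difference of Alx1 was 3.49 and 4.44 in knockouts 1 and 2, against 5.60 and 5.54 in knockouts 3 and 4. That of Hand2 was 0.78 and 1.30, against 2.45 and 2.33, and that of Msx1, a homeobox gene of the distal jaw, was -0.08 and 0.59, against 1.59 and 1.14. Their part in the members' values was not tested. In their maxilla 0 of 6 members were called by limma, with 0 at an unadjusted p under 0.05, where 0.607% of all genes were called. That share stands for 84 genes, against 41 without knockout 1 and 1994 without knockout 2.

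The difference between the knockout sets in the mandible gradient was tested directly, in a contrast added after seeing the data. Alpl was the 1 member of 6 that passed, with a gradient 2.35 ± 0.36 larger in knockouts 3 and 4 than in knockouts 1 and 2 (SE, adjusted p = 0.020 in limma), where 0.419% of all genes were called. Panx3 (2.60 ± 0.62), Ibsp (1.92 ± 0.46), Sp7 (1.78 ± 0.40) and Smpd3 (1.60 ± 0.41) had adjusted p between 0.112 and 0.175, and Tmem119 stood at -0.49 ± 0.18 (adjusted p = 0.47). For Panx3 and Ibsp the arrays of knockouts 1 and 2 were under the filter level, so the size of these differences is a poor measure. The call of Alpl was lost without any 1 of the 4 knockouts (adjusted p 0.079 to 0.26), and without knockout 4 Panx3 was called instead (3.34, adjusted p = 0.0047). The 3' excess, the hybridisation controls and the erythroid markers given above separate the same sets, and their part in this difference was not tested. Between the jaws of knockouts 3 and 4 the gradient did not pass for any member (0 of 6 in limma, where 0.137% of all genes were called). At an unadjusted p under 0.05 were 4 members, beside 673 of all 13837 genes. The gradient of Panx3 differed by 2.93 ± 0.62 (adjusted p = 0.14 in limma). It was called without knockout 3 (3.07, adjusted p = 0.031) and without knockout 4 (2.79, adjusted p = 0.018).

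Other regulators of osteoblasts were read from a list of 24 genes, 22 of them tested, with Vdr under the filter. In knockouts 1 and 2, 3 were higher and 9 lower than in controls, with a list median of -0.18, where 58.0% of all genes were called, 3279 higher and 4750 lower. The 3 higher genes were Gli1 (0.84), Pth1r (0.51), the parathyroid hormone receptor, and Atf4 (0.24), a transcription factor of late osteoblasts. The 9 lower genes ran from Bmp2 (-1.23), a bone morphogenetic protein, through Dlx6 (-1.04), Fgfr3, Lrp6, Hey1, Dlx5, Cbfb, the partner of Runx2 (-0.72), and Lrp5 (-0.70) to Zfp521 (-0.47). In knockouts 3 and 4, 0 were higher and 2 lower, where 4.64% of all genes were called, with a list median of -0.03, beside a median of -0.03 over all genes. These were Lrp5, a Wnt co-receptor whose loss in mice lowers bone mass, at -1.15 ± 0.06 (SE, adjusted p = 0.0023 in limma), and Fgfr1, a receptor for fibroblast growth factors, at -0.46 ± 0.09 (adjusted p = 0.049). Lrp5 had 7.18 to 7.48 on the 8 arrays of knockouts 3 and 4, 7.51 to 8.14 in knockouts 1 and 2 and 8.31 to 8.71 in controls. The 3 sets did not overlap for that gene, and it was higher in knockouts 1 and 2 than in knockouts 3 and 4, by 0.45 ± 0.06 (adjusted p = 0.0011 in limma). Dlx5 and Dlx6, homeobox genes of the mandible that act upstream of Sp7 in mice, differed by -0.09 and -0.77 in knockouts 3 and 4 and were not called, and they are named here by choice after their values were seen.

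Genes of bone matrix and mineralisation formed a list of 26, of which 17 were tested. Mepe, Sost and Dspp, made by osteocytes and odontoblasts, were under the filter, and 6 others were not named by the annotation used here. In knockouts 1 and 2, 0 were higher and 16 lower than in controls, with a list median of -1.29, where the same 58.0% of all genes were called. The largest of these differences were those of Mgp (-3.27), the collagen cross-linking enzyme Lox (-2.81), Cthrc1 (-2.29), Omd (-2.09) and the matricellular protein Postn (-1.86), and the gene not called was Ifitm5. In knockouts 3 and 4, 0 were higher and 2 lower, beside the 4.64% of all genes, with a list median of -0.31. These 2 were Mgp, an inhibitor of calcification, at -0.94 ± 0.16 (SE, adjusted p = 0.038 in limma), and Sparc (osteonectin), at -0.48 ± 0.07 (adjusted p = 0.028). Col1a1, the main collagen of bone, had 9.77 to 10.74 in knockouts 1 and 2, 11.31 to 11.94 in knockouts 3 and 4 and 10.98 to 11.88 in controls. It was lower in knockouts 1 and 2 by -1.24 ± 0.10 (adjusted p = 0.00039 in limma) and differed by 0.01 in knockouts 3 and 4, where its arrays overlapped those of controls.

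Between the jaws, Dlx5 (0.94) and Dlx6 (1.52) were the 2 of 22 regulators higher in the control mandible than in the control maxilla, where 0.687% of all genes were called. In knockouts, where 7.71% were called, Dlx3 (1.08), Dlx5 (1.28) and Dlx6 (2.01) were higher in the mandible and Hey1 (-0.90) lower, as were the matrix genes Tnfrsf11b (-1.23), Ank (-0.74) and Col1a2 (-0.23).

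Between the ends of the mandible of knockouts 3 and 4, where 1.20% of all genes were called, regulators were higher distally for 4 of 22 and lower for 1. The 4 were Bmp4 at 1.80 ± 0.29, the hedgehog targets Gli1 at 1.12 ± 0.21 and Ptch1 at 0.70 ± 0.13, and Fgfr3 at 0.65 ± 0.13 (SE, adjusted p between 0.014 and 0.044 in limma). The homeobox gene Dlx3 was lower distally, at -1.51 ± 0.26. Of the matrix genes 2 of 17 were higher distally and 0 lower. Omd (osteomodulin), a proteoglycan of bone matrix, had 7.64 and 7.32 distally and 6.15 and 6.07 proximally, a difference of 1.37 ± 0.21, and Ifitm5, a membrane protein of osteoblasts, differed by 0.88 ± 0.19.

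**Figure D4:**
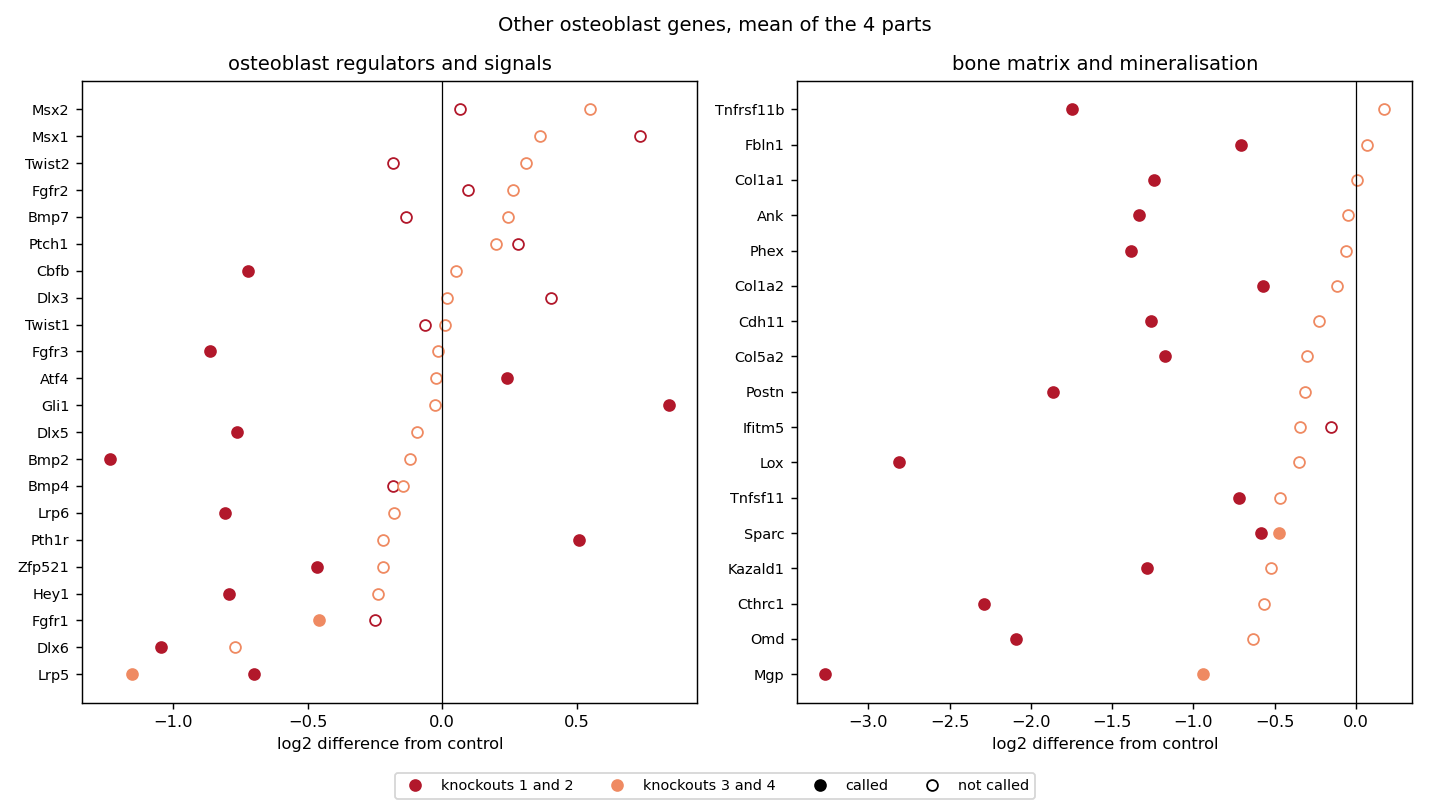
Difference from controls over the 4 parts (x axis, log2, knockout minus control) for the tested genes of the list of osteoblast regulators and signals (left) and of bone matrix and mineralisation (right), with 1 row per gene ordered by the value in knockouts 3 and 4; filled points passed an adjusted p of 0.05 in limma. For matrix genes the points of knockouts 1 and 2 lie far to the left, with Mgp at -3.27, and those of knockouts 3 and 4 lie nearer to 0, with Mgp at -0.94 and Sparc at -0.48 the 2 that passed.

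The markers of other cell types moved in part with the members. All 10 chondrocyte markers were lower than in controls in knockouts 1 and 2, where 58.0% of all genes were called. In knockouts 3 and 4, 4 of 10 were called lower (Sox9, Sox6, Acan and Cnmd), where 4.64% of all genes were called. All 10 differences there were below 0 with a median of -1.06. The mean log2 level of these 10 markers was 7.44 to 8.12 on arrays of knockouts 1 and 2, 8.15 to 9.60 on those of knockouts 3 and 4 and 8.90 to 10.52 on control arrays. Panx3 is also a gene of prehypertrophic cartilage. Of 4 markers of that stage and the next, Col10a1 (4.79 to 5.36 over all arrays) and Mmp13 (2.89 to 3.39) were under the filter, and Pth1r, which osteoblasts also express, was bright on every array. Ihh stood at 5.51 to 5.83 in knockouts 1 and 2, 5.54 to 6.09 in knockouts 3 and 4 and 5.35 to 6.74 in controls. The proximal maxilla of knockout 4, where Panx3 was high at 6.28, had a chondrocyte mean of 9.60, beside 8.15 in the same part of knockout 3. The part of cartilage in the values of Panx3 was not tested.

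Of the 7 osteoclast markers, 3 (Calcr, Ocstamp and Oscar) did not pass the filter. The 7-gene mean was 6.03 to 6.62 in knockouts 1 and 2, 5.98 to 6.55 in knockouts 3 and 4 and 6.03 to 6.47 in controls. The 4 tested markers went different ways in knockouts 1 and 2, where 58.0% of all genes were called. Acp5 (1.56) and Dcstamp (0.23) were higher than in controls and Ctsk (-1.05) and Mmp9 lower. Acp5, the tartrate-resistant acid phosphatase, had 7.31 to 8.45 in knockouts 1 and 2, 6.31 to 6.89 in knockouts 3 and 4 and 5.94 to 6.63 in controls. In knockouts 3 and 4 limma called 0 of these 4, where 4.64% of all genes were called. Mmp9 had an unadjusted p under 0.05, as did 3558 of all 13837 genes. The 6 endothelial markers averaged 7.54 to 8.74 in knockouts 1 and 2, 8.89 to 9.52 in knockouts 3 and 4 and 8.98 to 9.38 in controls. The 8 epithelial markers averaged 10.23 to 11.39, 10.36 to 11.31 and 9.62 to 11.20 in the same order. Of 7 neuronal markers Tubb3 and Stmn2 were lower than in controls in knockouts 1 and 2, beside the same 58.0%, with a list median of -1.04. In knockouts 3 and 4 limma called 0 of them, and 2 had an unadjusted p under 0.05, as did 3558 of all 13837 genes. All 7 neuronal markers had differences below 0 there (median -0.54). Their mean level was 5.96 to 9.85 in knockouts 1 and 2, 6.95 to 10.03 in knockouts 3 and 4 and 7.34 to 11.31 in controls. Of 8 macrophage markers Csf1r and Cd68 were higher and Mrc1 and Lyve1 lower in knockouts 1 and 2, beside the same 58.0%. The list median was 0.13. Cd68 was also higher in knockouts 3 and 4 (0.84, adjusted p = 0.015 in limma), beside the same 4.64%. There 7 of 8 macrophage markers had an unadjusted p under 0.05, as did 3558 of all 13837 genes, and the markers' median was 0.42. Their mean level was 7.15 to 8.08, 7.40 to 8.45 and 7.09 to 8.13 in the same order of sets. The part of tissue composition in the members' values was not tested.

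The genes whose pattern over the 24 arrays was most like each member, after removing the mean of each array set, were named by the 3 highest Pearson correlations. For Sp7 they were Insyn2b (0.96), Lgr6 (0.94) and Alpl (0.93), and for Alpl they were Lgr6 (0.94), Sp7 and Insyn2b (0.93 each). Lgr6 encodes a receptor for R-spondins, which amplify Wnt signals. For Ibsp they were Ifitm5 (0.93), Sfrp4 (0.91) and Clec11a (0.85), for Panx3 Slc7a8 (0.94), Ifitm5 (0.86) and Sfrp4 (0.85), and for Smpd3 Sfrp4 (0.86), Ibsp (0.84) and Sgms2 (0.84). Smpd3, Panx3 and Ibsp correlated with each other at 0.81 to 0.84. Panx3 correlated with Alpl at 0.52, the lowest value among these 5 genes. Tmem119 stood aside, at 0.27 to 0.53 with the other members, and its nearest gene was Dpep1 (0.87, but -0.26 with the array set means left in). These values describe arrays that share parts, replicate numbers and labels, and no test is attached to them.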

How the data were processed

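RNA was measured on 24 arrays of the Mouse430_2 type. Per the labels' protocols, total RNA was extracted with an RNeasy kit and labelled with biotin. The submitters' processing notes name RMA (version not given in the sources used here), and each deposited value is the log2 signal of a probe set. The deposited values do not share 1 distribution: array medians were 6.85 to 6.89 in knockouts 1 and 2, 6.76 to 6.84 in knockouts 3 and 4 and 6.76 to 6.85 in controls. Precision is limited by how few arrays there are.

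Of 45101 probe sets, 64 control features were left out of tests, and 34945 carry 1 gene symbol, 932 several and 9160 none. The probe set with the highest mean stood for each gene, and genes were tested if above the 40th percentile of all values (6.07) on at least 2 arrays. Models were fitted with lmFit and eBayes (no trend) of limma 3.58.1, run under R 4.3.3, 2-sided, with Benjamini-Hochberg adjustment over 13837 genes and a threshold of 0.05, and were tested on simulated data. The comparisons over the jaw used replicate means (6 in all), single parts a fit of 8 group means, and jaws and ends a fit of 12. The comparisons by jaw and of ends within each knockout set were added after seeing the data. The members and gene lists were chosen with earlier results of these data known, the lists of distal and proximal jaw genes after seeing these values. The text names all members, list genes past the threshold in the main comparisons, and the 3 genes most like each member. The Runx motif was planned, and the other motifs were added later. No arrays were copies of each other (highest correlation 0.997). Within knockouts, parts of the same number deviated together from the genotype means (correlations of 0.38 to 0.83 over 24 pairs), but parts of other numbers reached 0.77. With the array set means removed, same-number parts correlated at -0.31 to 0.22 in knockouts 1 and 2 and at 0.07 to 0.35 in knockouts 3 and 4, so the numbers were not taken to pair the parts. Knockout and control arrays of the same number and part did not (-0.50 to 0.22 over 8 pairs), nor did parts within controls (-0.68 to 0.58).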

Additional observations from a re-analysis of the deposited data

Results flagged for a closer look

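In the proximal maxilla of the knockouts Panx3 had 4.59, 4.62 and 4.66 on 3 arrays and 6.28 on the array of knockout 4. The gap between the highest value and its neighbour was 0.955 of the range of the 4 arrays, above the 95% limit of Dixon's test. This was 1 of 24 groups of 4 knockout arrays looked at, and chance passes that limit in about 1 in 20 groups.

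For Alpl the difference between the distal and the proximal mandible was 2.35 larger on the log2 scale in knockouts 3 and 4 than in knockouts 1 and 2, which carry the same genotype label (SE 0.36, adjusted p = 0.020 in limma).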

How the results depend on the processing

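With 2 control arrays a part and array sets that cannot be told apart from genotype, many counts of members called moved with the samples used. Without filter, after median centring and with trend and robust eBayes no count of members called moved by over 1.5 times. An RNA quality covariate raised the count for knockout against control from 0 to 3 over the 4 parts (Smpd3, Panx3 and Tmem119) and to 2 in the proximal mandible, where quantile normalization and the mean of all probe sets gave 1 each. That covariate, the 3' excess, separates knockouts 1 and 2 from all other arrays. Over the 4 parts it therefore sets mainly knockouts 3 and 4 against control (Panx3 at -1.82, beside -1.71 in that comparison). A replicate block over genotypes raised the counts to 6 over the 4 parts, 5 in the proximal mandible, 2 in the distal mandible and 1 in the proximal maxilla. Numbers 3 and 4 occur only in knockouts, so over the 4 parts that block sets only knockouts 1 and 2 against control (Panx3 at -2.84). For control mandible against maxilla the replicate block and the fit of 8 group means gave 0, against 1. Knockout arrays alone gave 1 for mandible against maxilla and 2 for distal against proximal, and the replicate block within knockouts changed no call of a member. Pairing the control mandible ends crosswise gave 0.

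Leaving out 1 number at a time, with a lone sample assumed to vary like the other groups, gave 1 to 4 members for knockouts 3 and 4 against control over the 4 parts, 0 to 3 in the mandible and 0 to 2 in the maxilla. For knockouts 1 and 2 it gave 3 to 6 in the mandible and 2 to 6 in the maxilla, and 2 to 6 for knockouts 1 and 2 against 3 and 4. For the jaws it gave 0 to 4 in controls and 0 to 1 in knockouts, for the ends 0 to 1 in controls and 0 to 2 in knockouts, and for the genotype effect 0 to 3 between jaws and 0 to 2 between ends. For the mandible ends it gave 0 to 1 in knockouts 1 and 2, 1 to 5 in knockouts 3 and 4, 0 to 1 for the difference of these sets and 0 to 1 for that of the jaws. Against control 1 alone, Sp7 and Alpl in the maxilla of knockouts 3 and 4 turned to 1.06 and 1.03, and against control 2 alone they were -1.19 each. Over all genes, the count for knockouts 3 and 4 over the 4 parts was 642, but 1064 with trend and robust eBayes, 216 with only the 2 sets compared and 16 to 1128 without 1 number. Knockout against control gave 0 genes as reported over the 4 parts, 679 with the RNA quality covariate and 6393 with the replicate block. In single parts it gave 0 to 2 genes, against 108 to 354 with that covariate, 4987 to 6709 with that block and 0 to 37 without 1 number. Without 1 number the count in the mandible of knockouts 3 and 4 (614) was 33 to 682 and in their maxilla (472) 33 to 1163, and for their mandible ends (166) it was 21 to 166. For the jaws it was 13 to 395 in controls (95) and 150 to 1579 in knockouts (1067), with 25 and 326 from the 8 group means, and for the ends in knockouts (64) 2 to 1554, with 5 from the 8 group means and 475 from the knockout arrays alone and 42 from the mean of all probe sets. The cause of these shifts was not tested, beyond the fewer arrays in each such fit.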
